A study of Arabidopsis thaliana with 18 samples.

Results

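The comparison described here sets seedlings of the Arabidopsis thaliana mutant vte2-1 against seedlings of the mutant vte1-1, both 3 days old. All arrays whose titles name these genotypes and this age were taken, which gave 6 of the 18 arrays of the series, 3 of vte2-1 and 3 of vte1-1. Both mutants are in the Columbia-0 background and are called vte2 and vte1 here, and 3 wild-type Columbia-0 (WT) arrays of the same age were used to see where WT lay. The 9 arrays at day 1 served for a comparison of the ages. Every group was germinated at 22 °C in a 12 h photoperiod on agar with Murashige and Skoog salts, after 5 days at 6 °C that broke dormancy, and age counts the days at 22 °C. RNA came from about 100 mg of pooled whole seedlings per sample, so that fewer cells of a type and less RNA per cell cannot be told apart. Each mutant is represented by 1 allele, and the labels call the 3 replicates of a group biological. The stated purpose of the study was to compare both mutants with each other and with WT.

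Tocopherols, known as vitamin E, are lipid-soluble antioxidants made in plastids, where they protect membrane lipids from oxidation. VTE2 encodes homogentisate phytyltransferase, which joins a phytyl tail to homogentisate and so makes the first committed intermediate of the pathway. VTE1 encodes tocopherol cyclase, which acts later and closes the ring of the quinol intermediate DMPBQ. Plants of both mutants lack tocopherols, but vte1 plants accumulate that quinol while vte2 plants lack it too. The quinol is itself a lipid antioxidant, and tocopherols are known to matter most in dry seeds and germinating seedlings, whose storage lipids oxidise easily. The comparison of vte2 with vte1 therefore sets seedlings without either antioxidant against seedlings that keep the quinol. The mutated genes themselves were not analysed here, since the probe annotation assigns no probe set to VTE1 or VTE2.

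The deposited values were MAS5 signals, a brightness per probe set on a linear scale, scaled by the authors so that the trimmed mean was 500.05 to 500.06 on every array. At day 3 the median signals were 168.75 to 178.1 in vte2, 174.95 to 180.95 in vte1 and 164.1 to 169.7 in WT. Replicate 3 stood apart within each of these groups. Replicates 1 and 2 correlated at 0.968 in vte2, 0.968 in vte1 and 0.961 in WT, whereas replicate 3 correlated with them at 0.924 to 0.938 in vte2, 0.941 to 0.956 in vte1 and 0.919 to 0.920 in WT. Replicate 3 also had the lowest ratio of the 3′ to the 5′ GAPDH control probe set in each group, with log2 ratios of -0.09 in vte2, 0.43 in vte1 and 0.06 in WT against 0.44 to 1.01 on the other 6 arrays. The actin log2 ratios were 3.37, 2.68 and 4.12 in replicate 3 of vte2, vte1 and WT. On the other 6 arrays they were 4.56 to 5.08. For the ubiquitin control replicate 3 was the lowest in vte2 (1.16) and vte1 (1.22) but the highest in WT (1.83). These ratios reflect RNA quality and labelling, and their part in the results was not tested. Counts are therefore also given without replicate 3.

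Of 15922 probe sets tested, 560 differed between vte2 and vte1 at day 3, which is 3.52% (limma, adjusted p under 0.05). There were 403 with a higher signal in vte2 (2.53%) and 157 with a lower one (0.986%). The higher set also held the larger differences: 344 of its members differed at least 2-fold and 113 at least 4-fold, against 121 and 19 of the lower set, on the scale log2(signal + 22). Calls of at least 2-fold made up 2.92% of all probe sets tested. On that scale the median difference was 1.52 in the higher set, -1.26 in the lower set and -0.05 over all probe sets tested. The 3 vte2 values lay beyond all 3 vte1 values for 399 of the 403 and 156 of the 157, as they did for 25.0% of all probe sets tested. Exactly 1 gene was named for 206 of the higher and 73 of the lower probe sets, and only these are named below. The 16 largest higher and 12 largest lower genes were named only where the arrays of the mutants did not overlap, so that separation is not an observation for them. Signals under 21.9, the 20th percentile of all signals, are hardly above the lower limit of the arrays, and there the size of a difference follows the added 22. Of the 403 higher probe sets 25 passed the filter on low values only through vte2 at day 3, among them AT4G12490, AT1G65500, AT2G43620, PRX52 and AT1G26420. Of the 157 lower ones 5 passed only through vte1 at day 3, among them AT2G39040. The number of calls depended on single arrays. It was 259 without vte1 replicate 1, 246 without vte1 replicate 2, 333 without vte2 replicate 1 and 281 without vte2 replicate 2. Without replicate 3 of every group 2229 probe sets were called, 391 of the 403 and 150 of the 157 among them. Without replicate 1 of every group only 29 were called, and without replicate 2 of every group 33. The lower set was the more exposed to a single array: without vte1 replicate 2, 210 of the 403 higher and 30 of the 157 lower probe sets were still called.

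AT4G12490 and PDF1.4 had the largest differences among the named higher genes, and both were close to the lower limit of the arrays in vte1. PDF1.4 (AT1G19610), a gene for a plant defensin, which is a small secreted antimicrobial peptide, had signals of 4283.2, 5020.6 and 5489.0 in vte2, against 16.8, 25.8 and 37.1 in vte1 and 106.3, 140.7 and 59.8 in WT. The vte2 arrays were far above all others, and the WT arrays were also above the vte1 arrays. The difference between the mutants was 6.69 ± 0.39 (log2, SE), with an adjusted p of 1.06e-08 in limma, and it was 7.54 with an added 1 and 5.78 with an added 64. AT4G12490, which belongs to the lipid transfer proteins, had signals of 5413.7, 3975.3 and 3312.2 in vte2, against 9.9, 26.3 and 6.7 in vte1 and 68.4, 59.0 and 22.9 in WT. The difference was 6.88 ± 0.47 (adjusted p 8.71e-08), or 8.30 with an added 1 and 5.76 with an added 64, where it was smaller than that of PDF1.4. The gene has close relatives in the genome, and whether their transcripts add to this signal was not tested. AT4G22470, another gene of that family, had 1101.8, 967.4 and 347.5 in vte2, against 22.5, 114.5 and 117.1 in vte1 and 312.8, 98.6 and 58.4 in WT, a difference of 2.98 ± 0.51 (adjusted p 0.00243). Its highest WT array was close to its lowest vte2 array. The 7 other genes tested of this family list lay between -1.11 and 0.33 and did not pass the test. Thus 2 of 9 genes tested were higher and none was lower, against 2.53% higher and 0.986% lower of all probe sets tested. Of these, AT4G12490 passed the filter on low values only through vte2 at day 3. AT2G37870, a lipid transfer gene outside that list, was lower in vte2 (-2.25 ± 0.49, adjusted p 0.0137).

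Of the 10 chitinase genes tested 2 were higher and none was lower, against 2.53% higher and 0.986% lower of all probe sets tested. Of the 10 differences 8 were positive and the median was 0.45. AT2G43620, 1 of the 2, passed the filter on low values only through vte2 at day 3. AT2G43620, a chitinase family gene whose products act on fungal cell walls, had signals of 2055.9, 2203.2 and 1733.3 in vte2, against 23.2, 54.6 and 70.2 in vte1 and 106.4, 49.0 and 140.7 in WT. The difference of 4.88 ± 0.57 had an adjusted p of 6.67e-05, and it was 5.44 with an added 1 and 4.201 with an added 64. A second chitinase gene, CHI (AT2G43570), had 832.5, 582.2 and 1205.7 in vte2, against 337.9, 412.0 and 242.3 in vte1 and 275.9, 168.6 and 411.1 in WT. Here the gap between the mutants was smaller, 1.31 ± 0.33 (adjusted p 0.0328), and the call was lost without vte1 replicate 1, 2 or 3 or vte2 replicate 1 or 3, with differences down to 1.06 and adjusted p of 0.0587 to 0.131. AT3G16530, of the legume lectin family of sugar-binding proteins, had 2551.5, 2209.8 and 4084.9 in vte2, against 294.4, 237.5 and 278.3 in vte1 and 388.7, 268.3 and 493.9 in WT, a difference of 3.30 ± 0.57 (adjusted p 0.00245). LCR67 (AT1G75830), also known as the defensin gene PDF1.1, had 502.5, 646.2 and 1183.7 in vte2, against 10.4, 98.1 and 319.8 in vte1 and 224.0, 439.8 and 131.3 in WT. Its vte1 values spread widely and overlapped the WT range, the difference was 2.77 ± 0.61 (adjusted p 0.0138), and the call was lost without vte1 replicate 1 (1.89, adjusted p 0.0892), vte1 replicate 2 (2.83, adjusted p 0.0504) or vte2 replicate 3 (2.43, adjusted p 0.056). AT2G01610, a gene of the invertase and pectin methylesterase inhibitor family, whose members block enzymes of sugar and pectin metabolism, had 364.4, 464.2 and 369.9 in vte2, against 2.6, 59.9 and 47.5 in vte1 and 39.0, 60.7 and 85.4 in WT (3.01 ± 0.44, adjusted p 0.000548). AT4G25250 of the same family was lower in vte2, as given below.

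**Figure D1:**
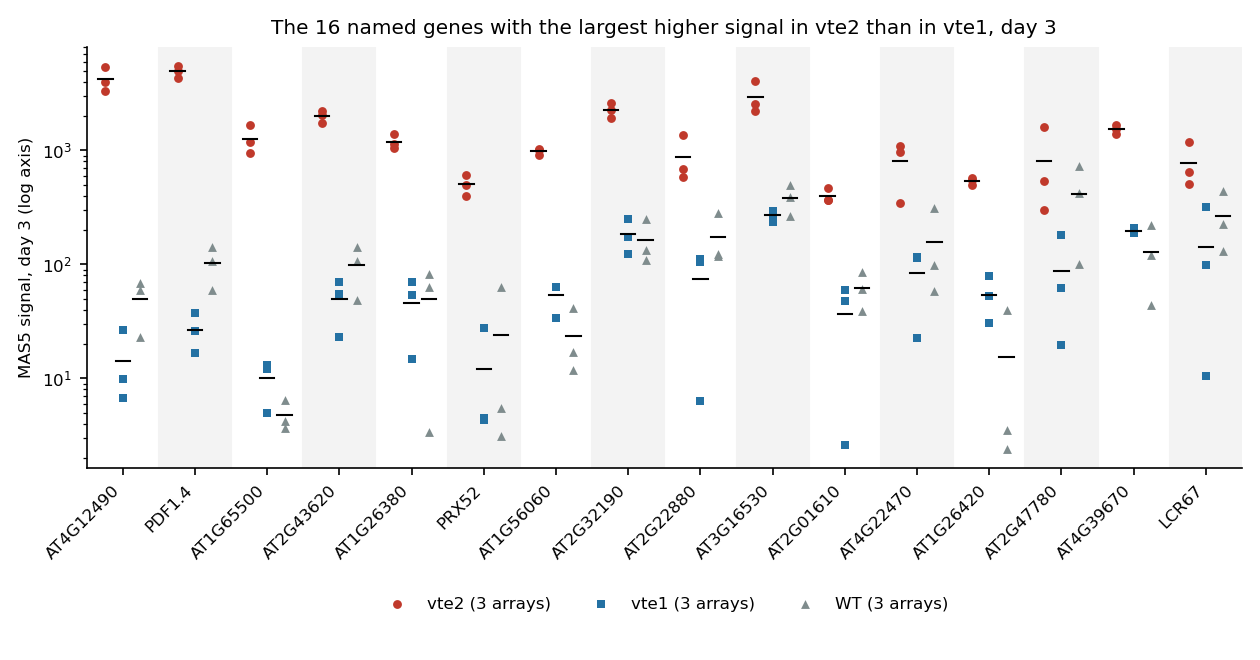
MAS5 signal at day 3 on a log axis for the 16 named genes with the largest higher signal in vte2, with vte2 left of vte1 and WT in each column, a point for each of 3 arrays and a bar for their mean. The vte2 points of PDF1.4 lie between 4283.2 and 5489.0 and all its vte1 and WT points at 140.7 or lower, while AT2G47780 and LCR67 have WT points among or near the vte2 points.

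Berberine bridge enzyme-like proteins are flavin oxidases, several of which oxidise cell wall sugars or defence metabolites. AT1G26380 had signals of 1043.0, 1131.5 and 1404.8 in vte2, against 53.7, 69.5 and 14.9 in vte1 and 63.7, 3.4 and 83.0 in WT, so that vte1 and WT overlapped and vte2 stood alone (4.25 ± 0.60, adjusted p 0.000361). AT1G26420 had 495.8, 547.2 and 568.3 in vte2, against 78.8, 52.8 and 30.4 in vte1 and 40.1, 3.5 and 2.4 in WT (2.93 ± 0.65, adjusted p 0.0143). AT4G20830 was higher by 1.21 ± 0.32 (adjusted p 0.0386), and AT5G44440, of the same family, was lower in vte2, with 113.4, 33.1 and 73.1 in vte2, against 215.5, 242.8 and 577.0 in vte1 and 267.0, 170.1 and 166.2 in WT (-1.91 ± 0.47, adjusted p 0.0264). The family thus moved both ways: of 11 genes tested 3 were higher and 1 was lower, with a median of 0.40. Among all probe sets tested 2.53% were higher and 0.986% lower. AT1G26420 passed the filter on low values only through vte2 at day 3. The call of AT1G26380 held without any single array, but was lost without replicate 1 of every group (adjusted p 0.057). The call of AT1G26420 was lost without vte1 replicate 2 or 3 or vte2 replicate 2 (adjusted p 0.057 to 0.0581), that of AT4G20830 without each of the 6 arrays in turn (adjusted p 0.0659 to 0.147), and that of AT5G44440 without vte1 replicate 2 or 3 or vte2 replicate 2 or 3 (adjusted p up to 0.143).

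Class III peroxidases are secreted enzymes that use hydrogen peroxide to cross-link or loosen walls. Of 37 tested, 3 were higher and 2 were lower in vte2, and the median difference was -0.28, below that of all probe sets tested. The shares over all probe sets tested were 2.53% higher and 0.986% lower. PRX52 passed the filter on low values only through vte2 at day 3. PRX52 (AT5G05340) had signals of 613.0, 495.8 and 399.1 in vte2, against 4.3, 27.7 and 4.5 in vte1 and 5.5, 3.1 and 63.0 in WT. Its signal was low in vte1 and WT, and its difference was 3.99 ± 0.55, with an adjusted p of 0.000267, and it was 5.72 with an added 1 and 2.89 with an added 64. Prx37 (AT4G08770) had 444.7, 342.9 and 567.3 in vte2, against 21.6, 108.3 and 113.2 in vte1 and 147.9, 147.1 and 108.8 in WT (2.34 ± 0.39, adjusted p 0.00186). AT5G39580 had 2256.0, 3046.2 and 3416.3 in vte2, against 406.7, 473.5 and 1421.0 in vte1 and 1958.1, 1596.1 and 1277.3 in WT (2.098 ± 0.47, adjusted p 0.0151). For this gene WT lay nearer to vte2 than to vte1, and the call was lost without vte1 replicate 1 (adjusted p 0.105), vte1 replicate 2 (0.0917) or vte2 replicate 2 (0.0631). The lower pair is given with the lower set below.

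WRKY factors are transcription factors, many of which act in immunity and senescence. WRKY53 (AT4G23810) had signals of 217.8, 380.0 and 191.9 in vte2, against 58.4, 56.1 and 37.0 in vte1 and 145.9, 89.2 and 121.1 in WT, with the 3 groups in separate ranges (1.93 ± 0.44, adjusted p 0.0174). WRKY6 (AT1G62300) had 904.1, 944.6 and 759.0 in vte2, against 264.7, 312.2 and 298.5 in vte1 and 384.9, 268.5 and 301.0 in WT (1.503 ± 0.33, adjusted p 0.0145). These were 2 of 6 WRKY genes tested, where 2.53% of all probe sets tested were higher, and WRKY22 had a difference of 1.097 that did not pass. The WRKY53 call was lost without vte1 replicate 1, 2 or 3 or vte2 replicate 2 (adjusted p 0.0534 to 0.109), and that of WRKY6 without vte1 or vte2 replicate 1 or 2 (adjusted p 0.0505 to 0.0729). AT2G22880, of the VQ motif family, whose members bind WRKY factors, had 691.7, 1368.5 and 584.0 in vte2, against 104.3, 110.8 and 6.3 in vte1 and 283.6, 123.1 and 117.8 in WT (3.44 ± 0.61, adjusted p 0.00289). Calmodulin-like proteins are calcium sensors. CML41 (AT3G50770) had 469.6, 243.8 and 781.3 in vte2, against 84.4, 75.7 and 56.3 in vte1 and 56.2, 89.8 and 124.1 in WT (2.34 ± 0.35, adjusted p 0.000587). CML38 (AT1G76650) differed by 1.84 ± 0.50 (adjusted p 0.0481), a call that was lost without vte1 replicate 1, 2 or 3 or vte2 replicate 1 or 2 (adjusted p 0.0632 to 0.247). The 4 other calmodulin-like genes tested lay between 0.02 and 0.15.

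AT1G56060 and AT2G32190 encode short proteins with a cysteine-rich transmembrane module, a kind often induced by stress. AT1G56060 had signals of 1005.6, 914.4 and 1026.6 in vte2, against 33.9, 63.6 and 63.2 in vte1 and 41.5, 17.1 and 11.9 in WT (3.76 ± 0.45, adjusted p 7.78e-05). AT2G32190 had 1910.4, 2270.0 and 2592.2 in vte2, against 250.3, 175.5 and 123.4 in vte1 and 132.6, 250.8 and 109.4 in WT (3.51 ± 0.42, adjusted p 7.78e-05). In both, vte1 and WT shared a range far below vte2. AT4G39670, of the glycolipid transfer protein family, had 1532.9, 1405.3 and 1656.3 in vte2, against 207.0, 187.2 and 194.2 in vte1 and 121.0, 44.2 and 221.5 in WT (2.83 ± 0.52, adjusted p 0.00371). AT1G65500, a gene without a role that can be given here, had 955.0, 1655.4 and 1185.3 in vte2, against 13.1, 5.0 and 12.0 in vte1 and 3.7, 4.2 and 6.5 in WT (5.30 ± 0.38, adjusted p 9.4e-08). It was near the lower limit in both other genotypes, the difference was 4.13 with an added 64, and with an added 1 the gene was not among those tested. AT2G47780, of the rubber elongation factor family of lipid droplet proteins, had 544.0, 300.7 and 1592.3 in vte2, against 19.5, 62.3 and 179.3 in vte1 and 729.6, 418.9 and 101.5 in WT. Its WT values overlapped both mutants, the mutants differed by 2.90 ± 0.59 (adjusted p 0.00864), and the call was lost without vte1 replicate 1 (2.35, adjusted p 0.0688). Among the 16 genes with the largest positive differences, 14 were still called without vte1 replicate 1, 14 without vte1 replicate 2 and 16 without replicate 3 of every group. AT4G12490, PDF1.4, AT1G65500, AT2G43620, AT1G56060 and AT2G32190 were also called without replicate 1 and without replicate 2 of every group.

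The defence list, which was chosen with earlier results of these data known, gave calls in 1 direction. Of 39 loci listed, 9 were tested and 5 of these were higher in vte2, where 2.53% of all probe sets were, and none was lower. The 5 were PDF1.4, AT4G12490, LCR67, WRKY53 and WRKY6, and the list's median difference was 1.503, against -0.05 over all probe sets tested. AT4G12490 passed the filter on low values only through vte2 at day 3, so its place among the 9 is not independent of its call. With any 1 array left out 2 to 4 of the 9 were called. The defensin genes PDF1.2 and PDF1.2b, known targets of jasmonate, had differences of -0.21 and 0.12 that did not pass the test. Both had low signals. PDF1.2 had 2.3, 39.7 and 33.2 in vte2, against 47.1, 49.6 and 4.1 in vte1. PDF1.2b had 41.0, 30.5 and 73.3 in vte2, against 43.5, 13.4 and 84.6 in vte1. The defensin genes on the list therefore ranged from a difference of 6.69 in PDF1.4 to small ones near the lower limit of the arrays that were not called.

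**Figure D2:**
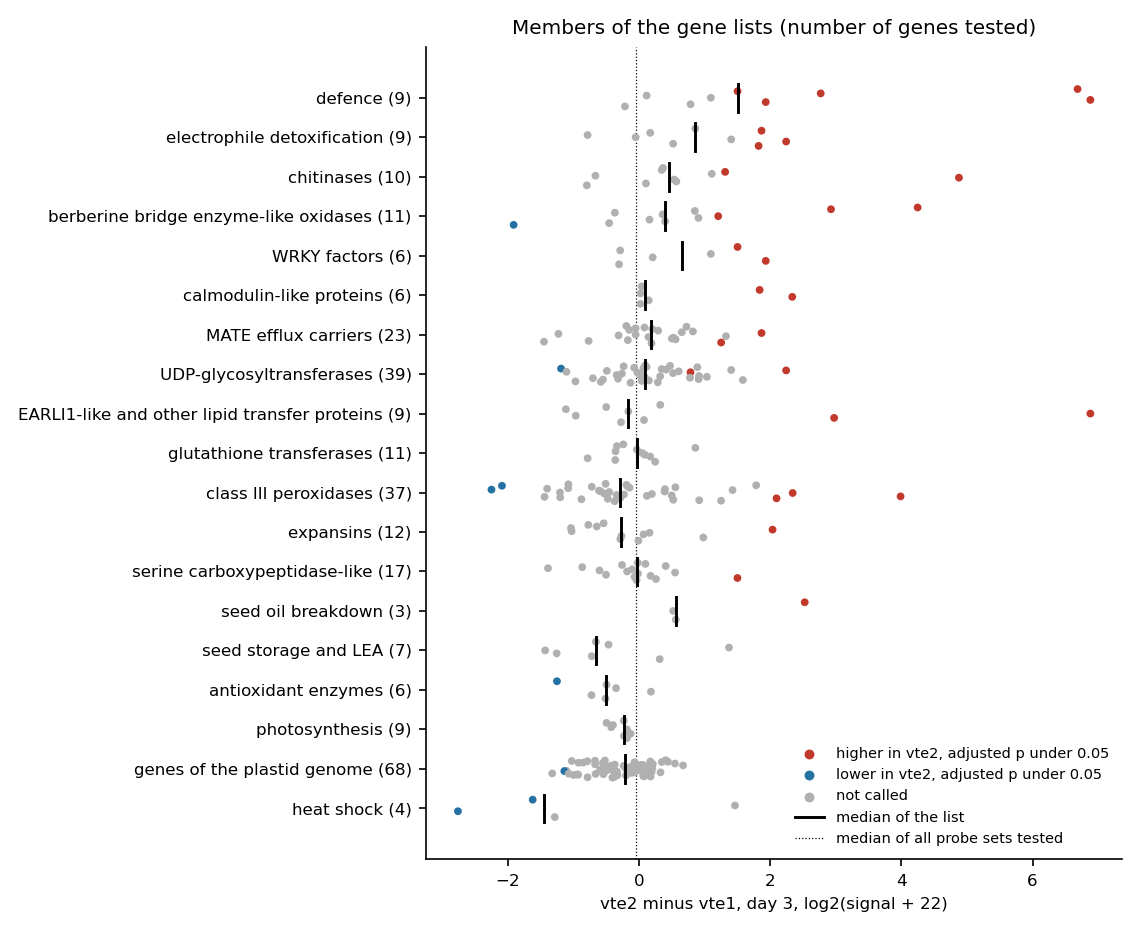
Difference between vte2 and vte1 at day 3 in log2(signal + 22) for each gene tested of 19 gene lists, with a point for each gene, a bar for the list's median and a dotted line at the median of all probe sets tested. The defence list has 5 of its 9 points called higher and none called lower. The photosynthesis points all lie below the dotted line, between -0.49 and -0.13. The plastid genome points spread from -1.32 to 0.67 with a median of -0.22.

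A further list, also chosen with earlier results of these data known, held genes for the detoxification of reactive electrophiles. These are compounds that arise when lipids oxidise. Of 9 tested, 3 were higher and none was lower, with a median of 0.86, where 2.53% of all probe sets tested were higher and 0.986% lower. AER (AT5G16970), an alkenal reductase that reduces reactive carbonyls, had signals of 2040.4, 2101.7 and 2003.8 in vte2, against 682.8, 558.7 and 466.6 in vte1 and 1771.9, 1708.1 and 665.0 in WT. The mutants differed by 1.82 ± 0.30 (adjusted p 0.00143), while WT replicates 1 and 2 lay close to vte2 and WT replicate 3 lay within the range of vte1. UGT73B4 (AT2G15490), a glycosyltransferase that attaches sugars to small molecules, had 498.6, 342.2 and 754.7 in vte2, against 68.0, 99.8 and 104.5 in vte1 and 144.8, 159.7 and 145.7 in WT (2.24 ± 0.40, adjusted p 0.00284). AT1G71140, a MATE family efflux carrier that moves compounds out of cells, had 467.4, 540.8 and 518.8 in vte2, against 139.3, 79.4 and 165.0 in vte1 and 56.6, 117.4 and 117.0 in WT (1.87 ± 0.41, adjusted p 0.013). Its call was lost without vte1 replicate 2 (adjusted p 0.0861) or vte2 replicate 2 (0.0578).

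The wider families held few further calls, where 2.53% of all probe sets tested were higher and 0.986% lower. Of 39 glycosyltransferase genes 2 were higher and 1 was lower, with a median of 0.09. UGT87A2 (AT2G30140) differed by 0.79 ± 0.22 (adjusted p 0.0496), a call lost without each of the 6 arrays in turn (adjusted p 0.0581 to 0.158). UGT78D1 (AT1G30530), which glycosylates flavonols, was lower, with signals of 195.4, 279.1 and 362.6 in vte2, against 683.5, 748.6 and 524.6 in vte1 and 323.2, 318.2 and 367.7 in WT (-1.19 ± 0.25, adjusted p 0.0112). Here vte2 and WT overlapped and vte1 stood above both, and the call was lost without vte1 replicate 1 or 2 or vte2 replicate 1 (adjusted p 0.0567 to 0.0702). Among 23 MATE carriers AT5G52450 was the other one higher, by 1.25 ± 0.28 (adjusted p 0.0137). Its call was lost without vte1 replicate 2 or 3 or vte2 replicate 1 or 2 (adjusted p 0.0511 to 0.064). CYP71B6 (AT2G24180), a cytochrome P450 oxidase, had 2524.3, 2175.6 and 2868.6 in vte2, against 1296.8, 1270.6 and 959.0 in vte1 and 1361.1, 1075.3 and 1046.1 in WT (1.09 ± 0.20, adjusted p 0.00433), 1 higher of 12 P450 genes tested. None of 11 glutathione transferases, enzymes that conjugate electrophiles, was called in either direction by limma (2 had an unadjusted p under 0.05), and GSTU25 had a difference of 0.86 that did not pass. STZ (AT1G27730), a zinc finger factor of oxidative stress, had 2131.9, 3772.2 and 562.2 in vte2, against 954.3, 863.9 and 146.3 in vte1, which overlapped, and its difference of 1.68 had an adjusted p of 0.154. AT2G21640, a mitochondrial marker of oxidative stress known as UPOX, differed by 1.67 (adjusted p 0.0669). Antioxidant enzymes gave 1 lower gene of 6 tested, TAPX, and a median of -0.50.

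Seed reserves, growth and amino acid synthesis contributed single genes, where 2.53% of all probe sets tested were higher and 0.986% lower. ICL (AT3G21720) encodes isocitrate lyase of the glyoxylate cycle, which turns seed oil into sugar. It had signals of 12285.7, 11572.3 and 14013.4 in vte2, against 1545.4, 1397.8 and 4678.9 in vte1 and 10393.8, 9936.7 and 2187.3 in WT. The vte2 arrays were the highest, WT replicates 1 and 2 were close to them and WT replicate 3 lay within the vte1 range. The mutants differed by 2.53 ± 0.46, about 5.76-fold (adjusted p 0.00367), and this call held without any single array. It was lost without replicate 1 and without replicate 2 of every group (adjusted p up to 0.25). The 2 other genes tested of seed oil breakdown, the lipase gene SDP1 and the beta-oxidation gene AIM1, had differences of 0.56 and 0.52 that did not pass. Of 7 seed storage and late embryogenesis genes tested none was called by limma (1 at an unadjusted p under 0.05), with a median of -0.66. EXPA4 (AT2G39700), an expansin that loosens cell walls, had 1978.2, 1811.6 and 2467.9 in vte2, against 379.1, 457.4 and 665.8 in vte1 and 551.0, 604.6 and 1227.8 in WT (2.04 ± 0.30, adjusted p 0.000482), 1 higher of 12 expansins tested. The protease gene scpl35 (AT5G08260) of the serine carboxypeptidase-like family had 566.7, 497.2 and 377.5 in vte2, against 193.4, 162.3 and 113.5 in vte1 and 244.8, 177.7 and 159.1 in WT (1.502 ± 0.23, adjusted p 0.000924). AT2G04400, for indole-3-glycerol phosphate synthase on the way to tryptophan, had 1676.0, 1511.4 and 2237.5 in vte2, against 901.4, 860.4 and 749.3 in vte1 and 599.8, 488.0 and 497.0 in WT, with separate ranges in all 3 genotypes and WT lowest (1.08 ± 0.23, adjusted p 0.011).

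AT5G12110 and AT5G48570 had the largest differences among the named lower genes on the scale log2(signal + 22). AT5G12110, a gene for the EF1B subunit that recharges the translation elongation factor, had signals of 216.0, 249.4 and 401.0 in vte2, against 2978.0, 2517.8 and 1094.0 in vte1 and 464.1, 434.3 and 402.7 in WT. The vte1 arrays stood above the others and replicate 3 was the lowest of them. The mutants differed by -2.76 ± 0.33, about 6.78-fold on the same scale (adjusted p 6.87e-05). AT5G48570, for the co-chaperone ROF2 of the FKBP family, which works with heat shock protein 90, had 305.1, 209.1 and 302.1 in vte2, against 2828.3, 2344.9 and 1104.1 in vte1 and 455.8, 453.4 and 335.1 in WT (-2.76 ± 0.49, adjusted p 0.00303). AT1G53540, a small heat shock protein gene whose product keeps unfolded proteins soluble, had 89.8, 146.3 and 111.4 in vte2, against 382.2, 387.4 and 418.3 in vte1 and 114.1, 84.4 and 117.5 in WT (-1.62 ± 0.35, adjusted p 0.0133). For AT1G53540 the vte2 and WT arrays overlapped and the vte1 arrays lay above both. Its call was lost without vte1 replicate 1 or 2 or vte2 replicate 1 (adjusted p 0.0523 to 0.0648). Of 4 heat shock genes tested 2 were lower and none was higher, with a median of -1.45, where 0.986% of all probe sets tested were lower. But another small heat shock protein gene, AT2G29500, had a difference of 1.46 (adjusted p 0.0713), so the list did not move as one.

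Further genes of the lower set encode enzymes and small proteins. AT3G50400, of the GDSL lipase family, had signals of 46.4, 136.0 and 242.2 in vte2, against 833.0, 985.5 and 755.1 in vte1 and 127.5, 158.3 and 832.4 in WT (-2.62 ± 0.54, adjusted p 0.00873). AT4G26790, another GDSL lipase gene, had 5.5, 38.3 and 58.5 in vte2, against 296.2, 210.1 and 191.6 in vte1 and 101.7, 98.1 and 202.5 in WT (-2.29 ± 0.41, adjusted p 0.00303). AT2G27420, for a cysteine protease, had 117.4, 9.4 and 204.1 in vte2, against 689.5, 629.8 and 598.9 in vte1 and 81.9, 191.2 and 336.6 in WT (-2.73 ± 0.56, adjusted p 0.00864). In these 3 genes WT replicate 3 was the highest WT array. AT2G22510, for a hydroxyproline-rich protein, had 373.8, 382.4 and 179.5 in vte2, against 2196.5, 2196.9 and 945.9 in vte1 and 331.1, 320.7 and 876.7 in WT (-2.40 ± 0.42, adjusted p 0.00261). AT1G66100, of the thionin family of small antimicrobial proteins, had 519.2, 624.4 and 505.6 in vte2, against 2514.3, 2108.0 and 2203.1 in vte1 and 1101.8, 797.0 and 1658.1 in WT (-2.01 ± 0.38, adjusted p 0.00486). It lay in 3 separate ranges, so a defence-related gene also ran against the direction of the defensin genes PDF1.4 and LCR67.

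AT5G15950, AT2G37870, AT2G39040, AT4G25250 and AT1G68850 complete the 12 named lower genes. AT5G15950 encodes S-adenosylmethionine decarboxylase of polyamine synthesis, AT2G37870 is a lipid transfer family gene, AT2G39040 and AT1G68850 encode class III peroxidases, and AT4G25250 belongs to the pectin methylesterase inhibitor family. Their differences were -2.31, -2.25, -2.25, -2.17 and -2.09 in that order, with adjusted p of 0.00722 to 0.0307. AT1G68850 had signals of 178.5, 179.4 and 235.7 in vte2, against 1181.6, 1008.0 and 622.7 in vte1 and 66.6, 94.3 and 642.1 in WT, so that WT replicate 3 lay within the vte1 range and the other WT arrays below vte2. Calls among these 12 genes were lost by leaving out a single array for AT3G50400 (vte1 replicate 2 or vte2 replicate 1, adjusted p up to 0.0582), AT2G37870 and AT4G25250 (vte1 replicate 1 or 2 in both, vte2 replicate 1 in AT2G37870 and vte2 replicate 2 in AT4G25250, adjusted p up to 0.169), and AT5G15950 and AT1G68850 (replicate 1 or 2 of either mutant, adjusted p up to 0.139). AT5G12110, AT5G48570, AT2G27420, AT4G26790, AT1G66100, AT2G39040 and AT2G22510 kept their calls without any single array. All 12 were called without replicate 3 of every group, and none without replicate 1 or without replicate 2 of every group. In 10 of the 12 replicate 3 was the lowest vte1 array, and in 10 of the 12 it was the highest WT array. Over the whole lower set these figures were 56.1% and 67.5%, against 37.8% and 38.6% of all probe sets tested, and the part of replicate 3 in the lower set was not tested beyond the counts without it.

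**Figure D3:**
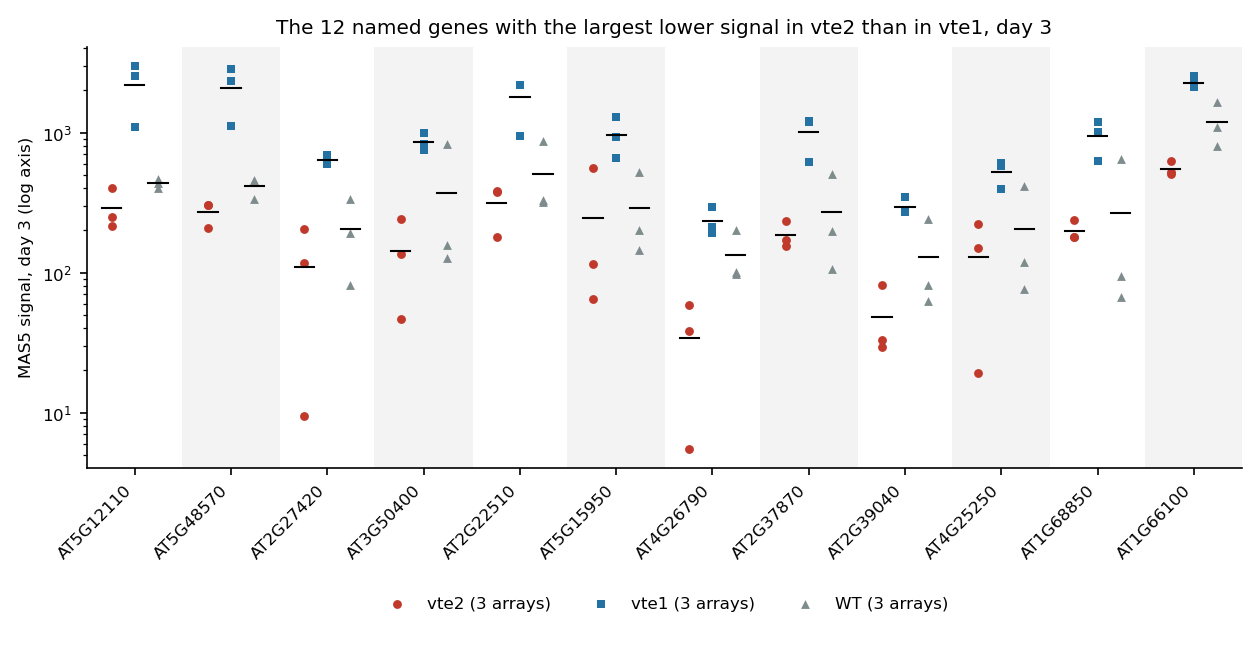
MAS5 signal at day 3 on a log axis for the 12 named genes with the largest lower signal in vte2, with vte2 left of vte1 and WT in each column, a point for each of 3 arrays and a bar for their mean. For AT5G12110 and AT5G48570 the 3 WT points lie between the mutants and nearer to vte2, while AT3G50400 and AT1G68850 each have 1 WT point within the vte1 range and the other WT points far below it.

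Plastid and photosynthesis genes gave few calls between the mutants at day 3, where 0.986% of all probe sets tested were lower and 2.53% higher. TAPX (AT1G77490), the ascorbate peroxidase of the thylakoid membrane that removes hydrogen peroxide, had signals of 2249.7, 1728.8 and 733.4 in vte2, against 3776.6, 3524.5 and 2977.2 in vte1 and 3330.8, 2280.1 and 3287.8 in WT (-1.25 ± 0.32, adjusted p 0.0368). Its vte2 replicate 3 was the lowest of all 9 arrays, and the call was lost without vte1 replicate 1, 2 or 3 or vte2 replicate 2 or 3, with adjusted p of 0.0592 to 0.15 and a difference of -0.78 without vte2 replicate 3. Of 68 genes of the plastid genome tested, rps18, for a plastid ribosomal protein, was lower and none was higher, with a median of -0.22. It had 1615.9, 1634.2 and 1247.5 in vte2, against 3717.8, 4096.3 and 2357.6 in vte1 and 3305.8, 3469.7 and 2049.0 in WT (-1.14 ± 0.27, adjusted p 0.0217). Its call was lost without vte1 replicate 1 or 2 or vte2 replicate 1, 2 or 3 (adjusted p 0.0542 to 0.129). None of 9 nuclear photosynthesis genes was called by limma, and 2 had an unadjusted p under 0.05. Their differences lay between -0.49 and -0.13, all below 0, with a median of -0.23 that became -0.07 after quantile normalization. The summed signal of these 9 genes, which also mark green tissue, was 154193 to 185328 in vte2, against 193373 to 240186 in vte1 and 262214 to 345108 in WT. The groups did not overlap in this sum, and its part in the other differences was not tested. Of 3 Calvin cycle, 4 chlorophyll synthesis and 3 phenylpropanoid genes tested none was called by limma (0, 0 and 1 at an unadjusted p under 0.05), with medians of -0.46, -0.12 and -0.58. The tocopherol and prenylquinone list had 3 genes tested, none called by limma (0 at an unadjusted p under 0.05), with a median of -0.06. AT1G74470, for the geranylgeranyl reductase that supplies the phytyl tail, had a difference of -0.42 (adjusted p 0.661). The root hair markers EXPA7 and EXPA18 had differences of -0.54 and -0.77 that did not pass. Their summed signal was 652.8 to 1103.3 in vte2, against 1170.6 to 1355.1 in vte1 and 574.1 to 1688.1 in WT. No marker of the seed coat, endosperm, phloem, xylem or dividing cells was tested, and the guard cell marker FMA differed by -0.08.

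The WT arrays, which helped to estimate the spread but not the difference between the mutants, were set beside both mutants as a description. For each called probe set the WT mean was placed on the line from the vte1 mean, at 0, to the vte2 mean, at 1. In the higher set the median position was 0.275, and WT lay nearer to vte1 for 294 of 403 probe sets and nearer to vte2 for 109. WT lay between the mutants for 287, beyond vte1 for 90 and beyond vte2 for 26. In the lower set the median position was 0.526, with WT nearer to vte1 for 74 of 157 probe sets and nearer to vte2 for 83. In the higher set WT was thus mostly nearer to vte1, and in the lower set it was divided about evenly. These positions carry the error of 3 WT arrays. Without WT replicate 3 WT was nearer to vte1 for 257 of the 403 and 62 of the 157, without WT replicate 1 for 310 and 91, and without WT replicate 2 for 298 and 88. The majority in the lower set thus changed sides without WT replicate 1 or 2.

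**Figure D4:**
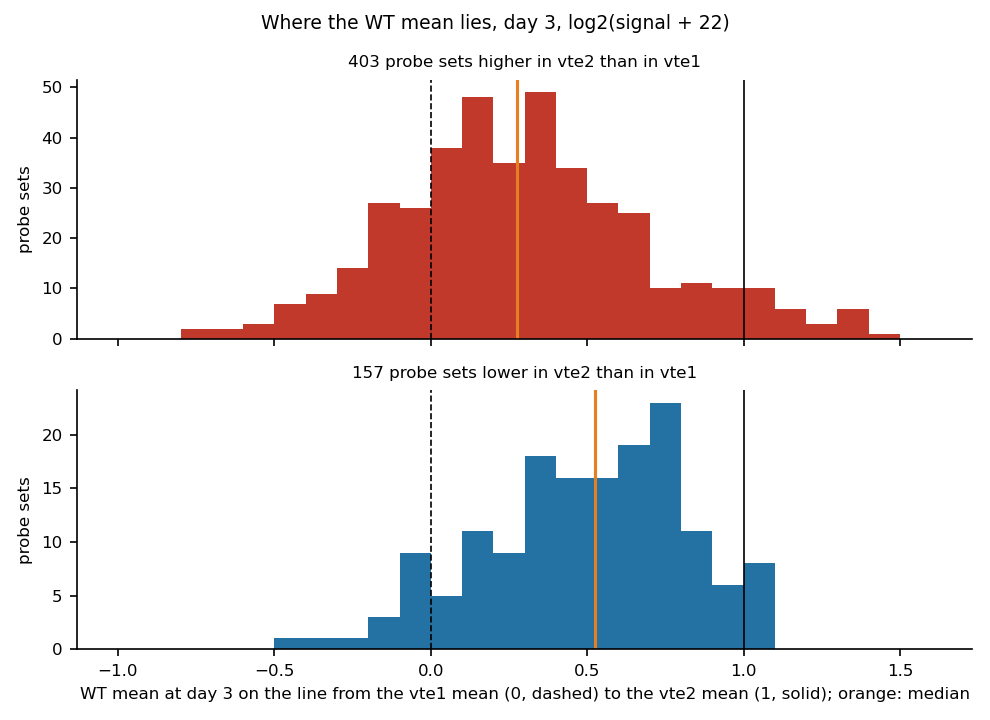
Histograms of where the WT mean at day 3 lay between the vte1 mean (0, dashed line) and the vte2 mean (1, solid line) on the log2(signal + 22) scale, for the 403 probe sets higher and the 157 lower in vte2 than in vte1; bars count probe sets and the orange line is the median. The upper histogram peaks nearer to the vte1 line with a median of 0.275, and the lower one peaks nearer to the vte2 line with a median of 0.526.

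Single genes showed both kinds of departure. The differences of each mutant from WT share the WT arrays, and each shares its mutant arrays with the comparison above, so they are given side by side without a test of likeness. For PDF1.4 vte2 minus WT was 5.37 (adjusted p 2.51e-07) and vte1 minus WT was -1.32 (adjusted p 0.177). For AT1G65500 they were 5.55 (adjusted p 1.27e-07) and 0.25 (adjusted p 0.904), and for PRX52 3.73 (adjusted p 0.00052) and -0.25 (adjusted p 0.937). These genes were called for vte2 against WT and not for vte1 against WT. However, AT1G65500 and PRX52 passed the filter on low values only through vte2 at day 3. Most of their vte1 and WT signals were near the lower limit of the arrays, where a difference between vte1 and WT can hardly be seen. For AT5G12110, in contrast, vte2 minus WT was -0.60 (adjusted p 0.459) and vte1 minus WT was 2.17 (adjusted p 0.00803). For AT1G53540 they were 0.10 (adjusted p 0.956) and 1.72 (adjusted p 0.0402). For ICL neither passed, with 1.04 (adjusted p 0.324) and -1.48 (adjusted p 0.201), and the same held for AER, with 0.69 (adjusted p 0.309) and -1.14 (adjusted p 0.104). ICL and AER were thus called between the mutants and not for either mutant against WT.

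Among the 26 higher probe sets with WT beyond vte2, 9 had 1 named gene, and 3 of these are given here as examples chosen after their values were seen. AT1G25400, a gene without a role that can be given here, had signals of 1103.4, 1334.4 and 447.2 in vte2, against 94.3, 149.7 and 207.8 in vte1 and 1770.6, 1576.7 and 314.7 in WT. Its vte1 arrays were the lowest, the mutants differed by 2.43 (adjusted p 0.00985), and vte1 minus WT was -2.57 (adjusted p 0.0319) while vte2 minus WT was -0.14 (adjusted p 0.958). AT1G56220, of the dormancy and auxin associated family, had 4337.6, 6303.7 and 4202.9 in vte2, against 1905.7, 1850.9 and 2222.8 in vte1 and 9683.2, 8084.7 and 4032.6 in WT, with a difference between the mutants of 1.28 (adjusted p 0.0388) and vte1 minus WT at -1.77 (adjusted p 0.0319). AT3G15450, a gene known to be induced in darkness and sugar starvation, had 10764.5, 13665.9 and 9085.8 in vte2, against 1559.7, 2236.6 and 7628.6 in vte1 and 19695.3, 13795.7 and 8951.4 in WT. Its difference between the mutants was 1.87 (adjusted p 0.0358), and vte1 minus WT was -2.16 (adjusted p 0.0616). The calls between the mutants were lost without single arrays: for AT1G25400 without vte1 replicate 1 or vte2 replicate 1 or 2 (adjusted p 0.0512 to 0.0679), for AT1G56220 without each of the 6 arrays (0.0507 to 0.172), and for AT3G15450 without any but vte1 replicate 3 (0.0507 to 0.217). In all 3 genes WT replicate 3 was the lowest WT array and vte1 replicate 3 the highest vte1 array.

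The change of WT itself between the ages came from arrays that share the fit and its spread with the comparison of the mutants, but not the difference. Of the 157 lower probe sets, 101 rose in WT at day 3 relative to day 1 (64.3%) and 15 fell, with a median change of 1.26. Over all probe sets tested 24.6% rose and 22.8% fell, with a median of 0.08. Of the 403 higher probe sets, 133 rose (33.0%) and 99 fell (24.6%), with a median of 0.27. Genes lower in vte2 than in vte1 were thus mostly genes whose signal increases as WT seedlings develop, among them AT1G66100 with 4.47, TAPX with 4.37, AT2G22510 with 4.01 and AT3G50400 with 3.16, whereas AT2G27420, AT5G15950 and AT4G26790 changed by -2.42, -1.70 and -1.48. In the higher set WT change ran both ways: scpl35 changed by -5.27, AT2G47780 by -4.84, LCR67 by -3.16 and ICL by -2.53, whereas AT2G43620 changed by 1.51.

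At day 1, measured on 6 other arrays, the same comparison called 831 probe sets (5.22%), 657 higher (4.13%) and 174 lower (1.09%) in vte2. Same-numbered arrays correlated at that age, mainly in that replicate 3 stood apart from replicates 1 and 2. With the replicate number as a block 1256 were called. The count was 382, 370 and 1854 without vte1 replicates 1, 2 and 3, and 408 without vte2 replicate 3, and it was 102, 49 and 2923 without replicates 1, 2 and 3 of every group. Of the day 3 higher set, 41 were also higher at day 1, which is 10.2% of the 403 and 6.24% of the 657, and 2 were lower. Of the day 3 lower set, 4 were also lower at day 1, which is 2.55% of the 157 and 2.299% of the 174, while 15 were higher (9.55% of the 157). Against the day 1 calls with the block, 60 of the 403 were also higher and 4 lower, and 4 of the 157 were also lower and 22 higher. At day 1 the difference was above 0 for 68.7% of the day 3 higher set and 61.8% of the day 3 lower set, against 51.8% of all probe sets tested. PDF1.4 and AT2G32190 were among those higher at both. PDF1.4 had signals at day 1 of 295.7, 231.6 and 456.7 in vte2, against 60.3, 2.8 and 7.6 in vte1, a difference of 3.11 (adjusted p 9.99e-05), and AT2G32190 differed by 2.67 (adjusted p 0.000731) and AT1G56060 by 1.89 (adjusted p 0.0181). AT4G26790 was lower at both ages, by -1.79 at day 1 (adjusted p 0.0133).

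The test of the difference between the ages called 842 probe sets (5.29%), with the day 3 difference above the day 1 difference for 231 (1.45%) and below it for 611 (3.84%). With the replicate number as a block it called 1285. Of the day 1 arrays, leaving out vte1 replicates 1, 2 and 3 gave 548, 453 and 1708 calls. Of the day 3 arrays, leaving out vte2 replicates 1 and 2 gave 560 and 539, and vte1 replicates 1 and 2 gave 460 and 510. Without replicates 1, 2 and 3 of every group there were 2, 5 and 3154. Of the 403 higher probe sets 139 were called in it and of the 157 lower ones 79. Both sets were chosen by the day 3 difference, which is 1 term of this test, so these counts and directions are a description. AT4G12490 was at 78.7, 9.1 and 91.0 in vte2 at day 1, against 23.7, 50.6 and 2.2 in vte1, and the difference grew by 6.17 ± 0.67 between the ages (adjusted p 4.24e-05). For AT1G65500 the difference grew by 6.14 (adjusted p 8.5e-06), for PRX52 by 5.61 (adjusted p 0.000528), for AT2G43620 by 5.23 (adjusted p 0.00113) and for ICL by 2.80 (adjusted p 0.0164). For AT5G12110 it moved by -2.77 (adjusted p 0.00191) and for AT5G48570 by -2.92 (adjusted p 0.019). These genes thus differed between the mutants at day 3 and were not called at day 1. AT4G12490, AT1G65500, PRX52 and AT2G43620 passed the filter on low values only through vte2 at day 3. Their low signals at day 1 are thus tied to that filter, and their values here are a description.

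Several gene lists gave different counts at the 2 ages. Of all probe sets tested 4.13% were higher and 1.09% lower in vte2 at day 1, and 2.53% and 0.986% at day 3. Between the ages 1.45% were called upward and 3.84% downward. For some genes vte1 replicate 3 departed from replicates 1 and 2 at day 1. It was at 4561.4 against 1712.8 and 1925.7 for LHCB4.1, and at 1605.3 against 10964.8 and 12017.4 for LEA4-5. Of the 9 photosynthesis genes, 7 were higher in vte2 than in vte1 at day 1 and none at day 3, and the difference between the ages was called for 7, all downward. Their summed signal at day 1 was 41950.6 to 42683.1 in vte2, against 18347.3 to 24624.1 in vte1 and 31733.8 to 37138.5 in WT, so that vte2 was the highest genotype at day 1 and the lowest at day 3. Of 37 class III peroxidases, 11 were higher at day 1 against 3 at day 3, and 9 were called between the ages, 3 upward and 6 downward. Of 14 glutaredoxins of the CC class, small redox proteins that act with transcription factors, 9 were higher at day 1 and none was called at day 3 by limma (5 at an unadjusted p under 0.05), and 2 were called between the ages, both downward. Of 7 seed storage and late embryogenesis genes, 5 were lower in vte2 at day 1 and none was called at day 3, but none was called between the ages. For the defence list 1 of 9 genes was higher at day 1 and 5 at day 3, and 2 were called between the ages, PDF1.4 and AT4G12490, both upward. Of these, AT4G12490 passed the filter on low values only through vte2 at day 3. The root hair markers EXPA7 and EXPA18 were both higher at day 1 and were both called downward between the ages. At day 1 EXPA7 had 281.5, 412.9 and 2313.1 in vte2, against 18.3 to 244.7 in vte1 and 455.8 to 780.5 in WT. EXPA18 had 154.8, 197.5 and 2446.8 in vte2, against 43.3 to 79.5 in vte1 and 191.2 to 397.7 in WT. In both, vte2 replicate 3 was thus far above vte2 replicates 1 and 2.

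**Figure D5:**
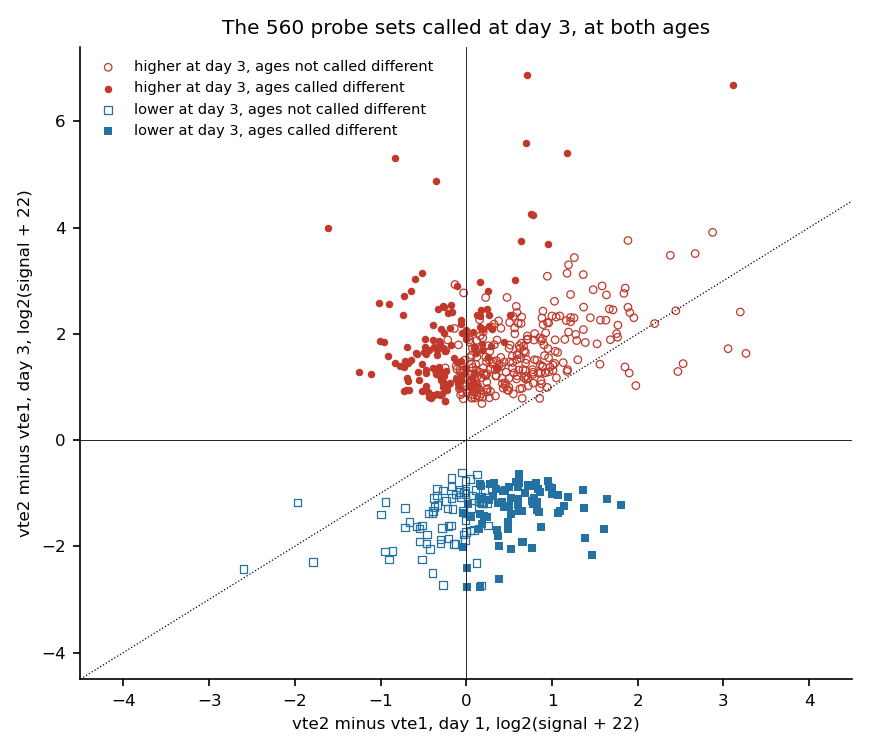
Difference between vte2 and vte1 in log2(signal + 22) at day 1 (horizontal) and at day 3 (vertical) for the 560 probe sets called at day 3, with red circles for those higher and blue squares for those lower in vte2, filled where the 2 ages were called different; the dotted line marks equal differences. Most red points lie above the dotted line and most blue points below it, which their choice by the day 3 difference favours, and 139 of the 403 red and 79 of the 157 blue points are filled.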

How the data were processed

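Signals of 22810 probe sets on 18 Affymetrix ATH1 arrays, 3 for each of 6 groups, were taken from the table that the authors deposited. MAS5 is named in the submitters' processing notes, and the deposited intensity values are linear signals scaled to a common trimmed mean, as the values themselves show. No other step is given in the sources used here. The 64 control probe sets were left out, signals were taken as log2(signal + 22), and the 15922 probe sets above the 30th percentile of mean log2 signal were tested. limma 3.58.1 in R 4.3.3 was fitted to all 6 groups (12 residual degrees of freedom, mean-variance trend), with Benjamini-Hochberg adjustment over all probe sets and a threshold of 0.05. The number of arrays limits the precision, and an exact permutation test of 3 against 3 cannot go below 0.1.

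The probe table names 1 gene for 13513 probe sets, several for 503 and none for 8730, and 13436 were matched to RefSeq genes. Of 400 listed loci in 18 lists, 69 were tested. A further 17 family lists were set after the probe annotation was read. Named are the 16 largest higher and 12 largest lower called genes whose groups did not overlap, up to 4 called members per list and direction, and for a list without a call its member with the highest mean. Members and lists were chosen with earlier results of these data known. The steps were tested on simulated data.

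At day 3 same-numbered vte2 and vte1 arrays correlated at 0.06, 0.03 and 0.13 in their deviations from the group means, so the numbers were not taken to pair them. Same-numbered vte2 and WT arrays correlated at 0.15, 0.22 and 0.37 and were. Yet replicate 1 of vte2 with replicate 2 of WT gave 0.14, and replicate 2 of vte2 with replicate 1 of WT 0.16. At day 1 same-numbered vte2 and vte1 arrays correlated at 0.26, 0.34 and 0.51 and were taken to pair the arrays. Replicates 1 and 2 with unlike numbers gave 0.19 and 0.32, and replicate 3 with replicates 1 and 2 gave -0.43 to -0.29. The numbers thus mainly set replicate 3 apart, and do not show that replicates 1 and 2 were matched. No 2 arrays shared more than 0.254% of their values. Promoter motifs were not analysed here. Alternatives were a replicate block, only the arrays of the contrast, quantile normalization, median centring, pseudocounts of 1 and 64, no filter, a 50th percentile filter, no mean-variance trend and leaving out arrays.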

Additional observations from a re-analysis of the deposited data

Results flagged for a closer look

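The difference between vte2 and vte1 was not the same at day 3 as at day 1 for 842 probe sets, by the test of the difference itself in limma, and 29 named genes were among them. The values below are the day 3 difference minus the day 1 difference (log2), so a positive value means that vte2 moved up relative to vte1 with age. Many of these genes were named for their day 3 difference, which favours the direction given. In addition, AT4G12490, AT2G43620, PRX52 and AT1G65500 passed the filter on low values only through vte2 at day 3. Among secreted defence and wall proteins it was 6.168 for AT4G12490, 3.58 for PDF1.4, 5.227 for AT2G43620, 1.789 for CHI, 2.809 for AT4G22470, 2.44 for AT2G01610 and 1.959 for EXPA4. Among oxidases and peroxidases it was 3.498 for AT1G26380, 5.607 for PRX52, 2.182 for Prx37 and 2.387 for AT5G39580, but -2.574 for AT5G44440. It was also positive for AT1G65500 at 6.138, AT2G47780 at 3.006, ICL at 2.8, scpl35 at 2.151 and AT2G04400 at 1.176.

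Negative values among genes for plastid proteins were -1.619 for LHCB4.1, -2.398 for AT1G74470, -1.399 for rps18 and -1.744 for TAPX, while of 68 genes of the plastid genome 4 were called downward, where 3.84% of all probe sets were. The value was -2.917 for the chaperone gene AT5G48570 and -2.771 for the elongation factor gene AT5G12110. The remaining negative values were -3.546 for EXPA7, -1.553 for UGT78D1, -1.972 for AT1G66100, -3.638 for AT4G25250, -2.409 for AT2G22510 and -3.007 for AT3G50400. LHCB4.1, AT1G74470 and EXPA7 were higher in vte2 at day 1 and were not called at day 3.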

How the results depend on the processing

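The day 3 count of 560 was 399 to 796 under other scalings, pseudocounts, filters and without the trend, and 870 with only the arrays of the contrast. Leaving out arrays gave 29 to 2229 calls at day 3, 49 to 2923 at day 1 and 2 to 3154 for the difference between the ages. At day 1 only the arrays of the contrast gave 102. With the replicate block, 785 were called at day 3, with all 403 higher and 157 lower probe sets among them, 1256 at day 1 and 1285 between the ages. At day 3 the numbers of vte2 and vte1 are not taken as pairs, whereas those of vte2 and WT are. The values of vte2 against WT in the text are without the block, which changed none of the calls given there. For AT4G26790 and rps18, whose values against WT are not given there, it did. The adjusted p of vte2 against WT in limma went from 0.0536 to 0.0429 for AT4G26790 and from 0.0807 to 0.0287 for rps18. Median centring raised the share of higher calls between the ages to 38.55%, against 27.43% without it. With a pseudocount of 1, 15 of the 16 largest higher genes were tested and 14 called, and 5 of the 12 largest lower ones were called. The 50th percentile filter left 6 of the 16 and 6 of the 12, all called. Signs turned only for genes that were not called: with arrays left out, UGT74B1 ranged from -0.043 to 0.22, EXGT-A3 from -0.11 to 0.11, FMA from -0.44 to 0.15 and RCA from -0.42 to 0.0051. The cause of these changes was not tested, beyond the fewer samples in fits that leave arrays out.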
